A study of Homo sapiens with 8 samples.

Results

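SNARs, a family of short noncoding RNAs, and other small structural noncoding RNAs were examined on 8 two-colour Agilent arrays of 60-base probes. The members were chosen by gene name, namely the names that start with SNAR-, RN7S, RNU, RNY, VTRNA, RNA5, RNA18S, RNA28S or RNA45S, and RMRP, RPPH1 and TERC. These were 35 of 58201 probes, for 31 of 43317 gene names. There were 12 SNAR names, 2 of 7SK and 7SL RNA, 5 spliceosomal snRNAs, 3 ribosomal RNAs, 2 RNAs of RNase P and RNase MRP, 4 vault RNAs, 2 U105 snoRNAs and TERC. The arrays had 0 names that start with RNY or RNA45S. The ratios of these arrays were known when the set was chosen, so every ratio below is a description and carries no test.

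HCT116, a line of human colon cancer, was on 4 arrays, and PANC-1, a line of human pancreatic cancer, was on the other 4. On every array the Cy5 channel was RNA of cells transfected with a mature miRNA using Lipofectamine RNAiMAX, and the Cy3 channel was that of mock cells from that line, which the labels give as not transfected. The HCT116 arrays were, in order, miR-139-5p and then miR-139-3p, miR-143-5p and then miR-143-3p. The PANC-1 arrays were miR-30c-5p and then miR-30c-2-3p, followed by miR-30a-5p and then miR-30a-3p. Each miRNA was on 1 array, with no array for a control miRNA and no dye swap, so the miRNA, the transfection itself and the dye cannot be told apart in a ratio. Values listed for 8 arrays are in the order just given.

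Each array had 60901 spots other than controls, of which 44.1% to 45.3% were well above background in Cy3 and 45.8% to 51.4% in Cy5. No spot was called saturated. For the 300 probes printed 10 times, repeated spots had a median SD of 0.0393 to 0.0646 in log2 ratio, and this is a spread within a hybridisation, not between cultures. Every member probe was printed in 1 spot. In the mock cells, HCT116 exceeded PANC-1 in the epithelial markers CDH1 (log2 difference 2.92), EPCAM (4.31) and CDX2 (1.22). CDX1, a further one, had no call (-0.07). The mesenchymal markers VIM (-8.63), SPARC (-3.29) and ZEB1 (-2.45) were lower in HCT116 (limma, comparison described at the end). CDH2, mesenchymal, and LGALS4, epithelial, were not well above background on any HCT116 array and were above it on all 4 of PANC-1, where they were at least 2.78-fold and 1.26-fold higher (dim side set to the lowest signal well above background, or its own if higher; limma adjusted p = 0.0053 and 0.028). CDH17, FN1 and SNAI2 were not well above background throughout either line.

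These RNAs work as RNA, without being translated. SNARs are short, primate-specific transcripts of RNA polymerase III. 7SK RNA holds the elongation factor P-TEFb in an inactive complex, 7SL RNA is the scaffold of the signal recognition particle, and U2, U11, U12, U4atac and U6atac RNAs are parts of the major or the minor spliceosome. RMRP and RPPH1 are the RNAs of RNase MRP and RNase P, TERC is the template of telomerase, and 18S, 28S and 5.8S rRNA are cut from a common precursor made by RNA polymerase I. Most of these RNAs lack a poly(A) tail. The label protocol, a linear amplification kit, starts from oligo(dT), so signal of such RNAs depends on how they were primed, and its part in the values was not tested.

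The probes are shown because they decide what each SNAR name could measure. Of 13 SNAR probes, 7 carried a RefSeq record and lay in the sense direction. Their sequences follow, with a run of A at the 3′ end in capitals.
SNAR-A3: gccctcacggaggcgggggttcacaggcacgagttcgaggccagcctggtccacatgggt
SNAR-B2: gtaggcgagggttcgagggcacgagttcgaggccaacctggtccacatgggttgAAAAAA
SNAR-D: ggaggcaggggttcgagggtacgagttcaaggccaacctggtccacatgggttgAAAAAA
SNAR-F: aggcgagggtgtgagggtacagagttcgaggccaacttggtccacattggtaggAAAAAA
SNAR-G1: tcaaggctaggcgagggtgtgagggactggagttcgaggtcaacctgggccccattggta
SNAR-G2: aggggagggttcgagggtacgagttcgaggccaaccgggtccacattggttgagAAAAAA
SNAR-H: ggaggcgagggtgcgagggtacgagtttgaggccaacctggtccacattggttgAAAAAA
SNAR-I: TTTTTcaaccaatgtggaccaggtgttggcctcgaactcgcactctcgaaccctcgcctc

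Pairs of the 7 sense probes shared 40 to 54 identical bases in a local alignment, with a median of 46 over 21 pairs, so their signals cannot be assigned to single SNAR genes. RefSeq lists 28 SNAR genes, 26 of them on chromosome 19. The run of A at the end stood in 5 of the 7 probes, in 0 of the 22 probes for other members and in 1.0996% of all probes (5 or more A). In hg19, the files place SNAR-A3 at chr19:48427077-48427136, SNAR-G1 at chr19:49540322-49540381 and SNAR-G2 at chr19:49534934-49534993. SNAR-B2 lies at chr19:50637012-50637071, SNAR-D at chr19:50643469-50643528 and SNAR-F at chr19:51108271-51108330. SNAR-H is at chr2:78182044-78182103 and SNAR-I at chr3:190595730-190595789. The SNAR-I probe shared 43 to 54 bases with the reverse complement of the sense probes and only 5 to 15 with the probes themselves (its leading T run is in capitals). It was well above background in Cy3 on 0 arrays, and its ratios lay between -0.03 and 0.08.

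The other 5 SNAR probes came from ESTs and shared 4 to 24 bases with the sense probes. They carry the names SNAR-B1, SNAR-C3, SNAR-C4, SNAR-E and, as a second probe detected on 1 array, SNAR-G1. SNAR-B1 and SNAR-C3 were detected on no array. SNAR-C4 (-0.17 to 0.04) and SNAR-E (-0.21 to 0.07) were detected on all 8, close to background. The results on SNARs below therefore rest on the 7 sense probes, chosen after their values were seen, except for medians said to be over all detected SNAR names.

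Across all classes, 28 of the 31 names were detected on at least 1 array and 26 on all 8, where detected means that the probe was well above background in either channel. RNU105C, a U105 snoRNA, was the third name that was never detected. A log2 ratio of at least 1 away from 0, a 2-fold difference, was used as a size rule, and 33 of 217 detected member values passed it, for 19 names. Both channels of all 33 stood well above background. On the miR-139-3p array, 13 of 28 detected members were at least 2-fold higher in transfected cells, against 2.11% of all detected genes. The miR-30c-2-3p array had 8 of 27, against 1.71%. The miR-143-3p array had 5 of 27, against 0.517%, and the miR-143-5p array 4 of 27, against 0.356%. On the miR-139-5p array, 1 of 27 was 2-fold higher, against 0.0587%, and on the miR-30a-5p array 1 of 27, against 0.306%. The miR-30c-5p and miR-30a-3p arrays had 0 of 27 each, against 0.747% and 0.372%. With median centring in place of the loess fit these counts were 6, 14, 12, 8, 8, 12, 6 and 7 in array order, against 0.259%, 2.26%, 1.005%, 0.637%, 3.98%, 3.47%, 1.41% and 8.82% of all genes, so the low counts on 4 arrays did not hold with that centring.

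Only 1 member value was at least 2-fold lower, 5.8S rRNA on the miR-30a-3p array, where 1.1% of all genes were lower. On the other 7 arrays the count of lower members was 0, against 0.201% (miR-139-5p), 2.82% (miR-139-3p), 1.0% (miR-143-5p), 0.925% (miR-143-3p), 0.445% (miR-30c-5p), 4.14% (miR-30c-2-3p) and 0.263% (miR-30a-5p) of all genes. The values nearest to the rule were 1.03 for SNAR-G2 on the miR-139-3p array, just inside, and 0.998 for RNU2-1 on the same array, just outside. The higher members on miR-30c-2-3p were 7 SNARs and 5.8S rRNA. On miR-139-3p they were 5 of the same SNARs, RN7SK, RN7SL1, RNU11, RNU4ATAC, RNU6ATAC, RPPH1, TERC and 28S rRNA. Both miR-143 arrays had 5.8S rRNA, U2 RNA and RMRP, joined by 18S rRNA on miR-143-5p and by RN7SK and RPPH1 on miR-143-3p. No difference between these sets was tested.

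**Figure D1:**
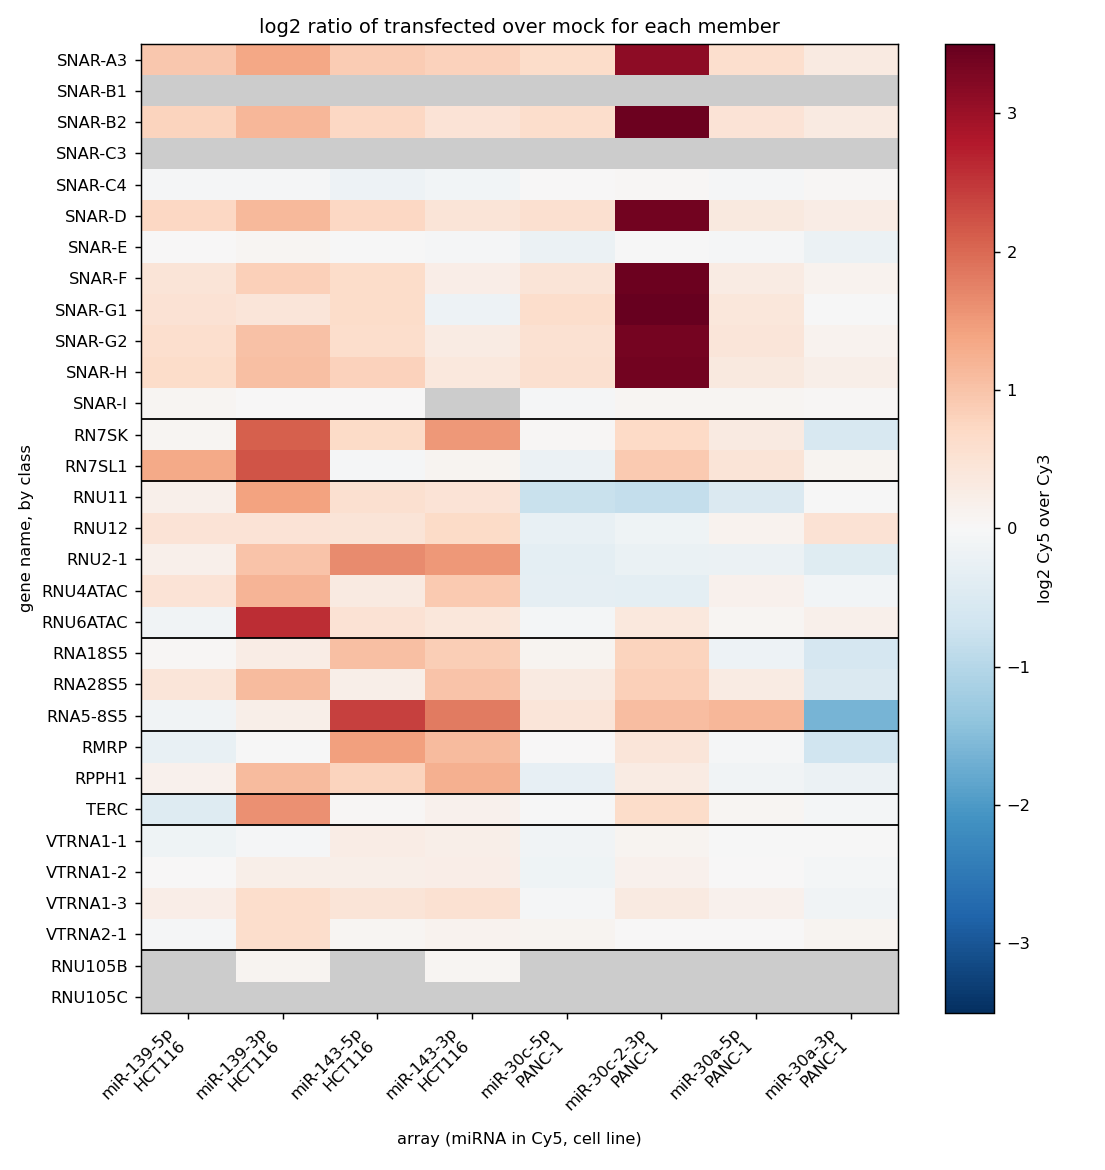
Log2 ratio of Cy5 (transfected) over Cy3 (mock) for each of the 31 gene names (rows, by class, lines between classes) on the 8 arrays (columns), with red for higher and blue for lower in transfected cells and grey where the probe was not well above background in either channel. The 7 sense SNAR probes stand at 3.12 to 3.49 on the miR-30c-2-3p array, while RN7SK, RN7SL1 and RNU6ATAC are highest on miR-139-3p and RNA5-8S5 on miR-143-5p.

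SNARs were the highest class on the miR-30c-2-3p array. SNAR-A3 had a log2 ratio of 3.12 there, SNAR-B2 3.43, SNAR-D 3.39, SNAR-F 3.44, SNAR-G1 3.49, SNAR-G2 3.34 and SNAR-H 3.38. The 7 values spanned less than 0.4 on the log2 scale, in probes whose sequences overlap. Over the 10 detected SNAR names the median was 3.36, and over all detected genes it was 0.01.

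On the other 7 arrays the same probes gave smaller ratios, most of them above 0. The median over the 7 probes was 0.65 on miR-139-5p, 1.04 on miR-139-3p, 0.73 on miR-143-5p and 0.37 on miR-143-3p. In PANC-1 it was 0.57 (miR-30c-5p), 0.39 (miR-30a-5p) and 0.20 (miR-30a-3p). SNAR-A3 had ratios of 0.94, 1.35, 0.90, 0.82, 0.64, 3.12, 0.59 and 0.31. SNAR-G1 was the only one of the 7 with a ratio below 0, -0.19 on miR-143-3p and -0.01 on miR-30a-3p. On miR-139-3p, 5 of the 7 were past 2-fold (1.03 to 1.35), but 0 of 7 were by the log ratios of the scanner software (0.736 to 0.970 for these 5). Median centring in place of the loess fit put 1 to 7 of the 7 past 2-fold on each array, and all 7 on miR-143-5p and miR-30c-5p. On the miR-30c-2-3p array all 7 passed with either of these alternatives, with medians of 3.33 and 3.82.

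The separate channels showed that the ratio on the miR-30c-2-3p array came from both dyes. Channel levels are log2 signals after quantile normalisation between arrays. The Cy3 level of SNAR-A3 in mock PANC-1 cells was 14.72 on the miR-30c-5p array, 13.39 on miR-30c-2-3p, 15.17 on miR-30a-5p and 15.22 on miR-30a-3p. The same spot's Cy5 level was 15.89, 16.64, 16.42 and 16.38. SNAR-A3 was thus lowest in Cy3 and highest in Cy5 on the miR-30c-2-3p array. For SNAR-G1 the Cy3 levels were 9.18, 9.23, 10.26 and 10.31, and the Cy5 levels 10.04, 13.12, 10.95 and 10.65. This probe stood apart in Cy5 alone.

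The Cy3 channels of both miR-30c arrays were otherwise nearly equal, since 11 of 19606 genes (0.0561%) were at least 2-fold apart. SNARs made up 5 of these 11, all lower on the miR-30c-2-3p array: SNAR-A3 by -1.33, SNAR-B2 by -1.65, SNAR-D by -1.54, SNAR-G2 by -1.11 and SNAR-H by -1.24. SNAR-F differed by -0.72 and SNAR-G1 by 0.05. In the pairs of Cy3 channels for miR-139, miR-143 and miR-30a, 3 (0.0153%), 4 (0.0204%) and 0 (0.0%) genes were 2-fold apart, and 0 of them were members. In Cy5 alone, the 7 SNARs were higher on miR-30c-2-3p than on miR-30c-5p by 0.75 (SNAR-A3) to 3.07 (SNAR-G1), with a median of 1.41. Against the miR-30a-5p array the Cy5 difference was 0.22 to 2.16, with a median of 0.96, and against miR-30a-3p it was 0.26 to 2.47, with a median of 0.99. All 21 of these Cy5 differences were above 0, and their medians were smaller than the ratio of 3.39. Quantile normalisation sets a level by rank, which limits differences among the brightest probes. SNAR-A3 was rank 2 in Cy5 on miR-30c-2-3p. Its mean Cy5 signal before normalisation was 133912 there, against 64833 (miR-30c-5p), 86275 (miR-30a-5p) and 88376 (miR-30a-3p). What the lower Cy3 signal adds to the ratio beyond RNA amounts was not tested.

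**Figure D2:**
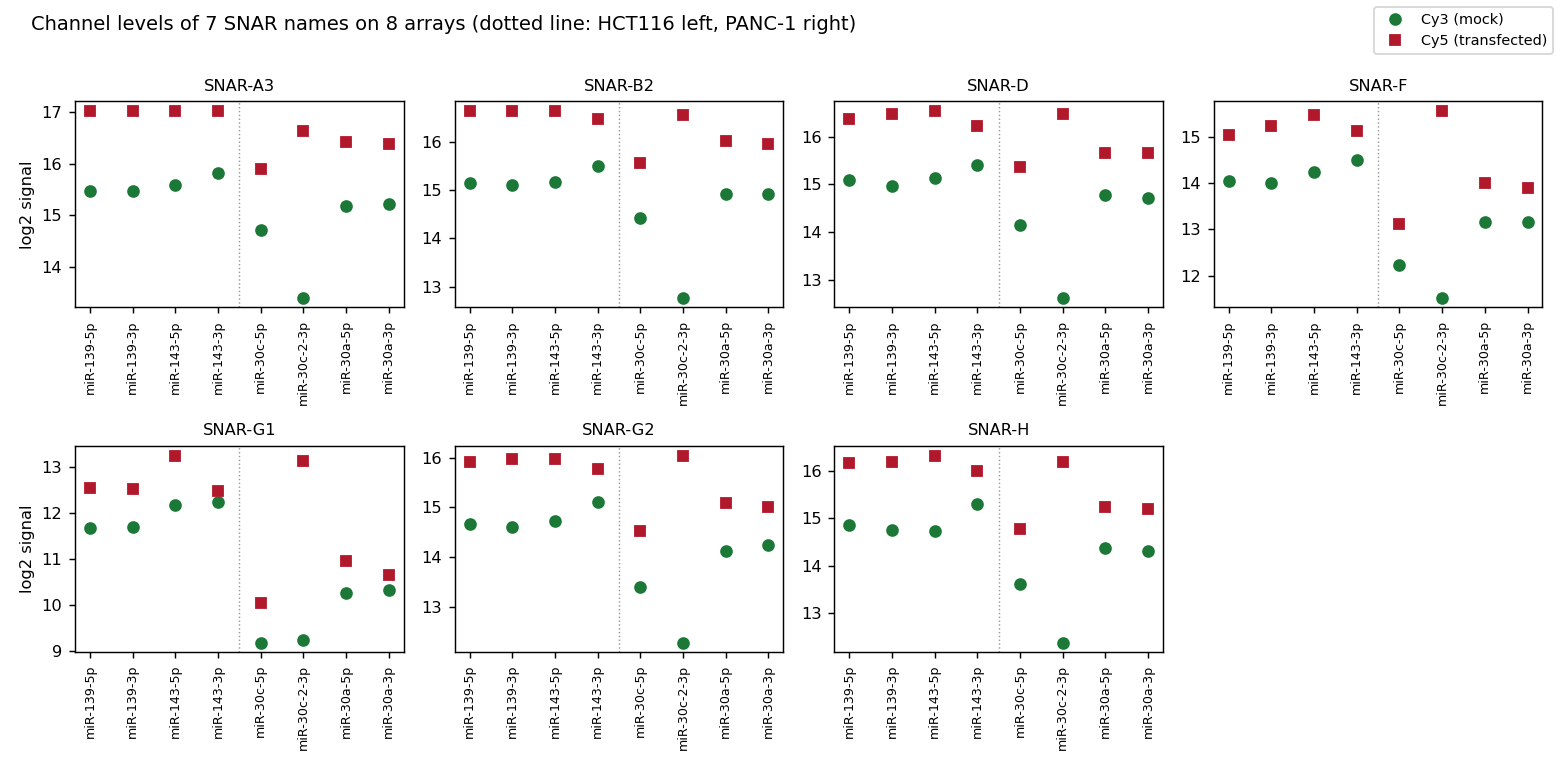
Log2 signal of 7 SNAR names in Cy3 (green circles, mock) and Cy5 (red squares, transfected) on the 8 arrays, with HCT116 arrays left and PANC-1 arrays right of the dotted line; the vertical axes differ between panels. On the miR-30c-2-3p array, Cy3 is at its lowest for 6 of the 7 names, as for SNAR-A3 (13.39), while SNAR-G1 has Cy3 at 9.23 and Cy5 at 13.12.

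SNAR-A3 gave the brightest Cy5 spot on all 4 HCT116 arrays, rank 1 of 58201 probes, and ranks 23, 2, 5 and 6 on the PANC-1 arrays. These are ranks of spot brightness, not of RNA amount.

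The mature miRNAs are shown with the seed, bases 2 to 8, in capitals (RefSeq, GRCh38.p14), since the members were searched for its complement.
miR-139-5p: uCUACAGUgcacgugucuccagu
miR-139-3p: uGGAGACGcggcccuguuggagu
miR-143-5p: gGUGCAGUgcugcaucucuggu
miR-143-3p: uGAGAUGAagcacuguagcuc
miR-30c-5p: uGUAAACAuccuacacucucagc
miR-30c-2-3p: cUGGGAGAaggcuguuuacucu
miR-30a-5p: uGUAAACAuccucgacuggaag
miR-30a-3p: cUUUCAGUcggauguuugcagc

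miR-30c-5p and miR-30a-5p share a seed, and their arrays gave 0 and 1 higher members, against 0.747% and 0.306% of all genes. With median centring the counts were 8 and 6, against 3.98% and 1.41%. The complement of the miR-30c-2-3p seed, TCTCCCA, was in 0 of the 35 member probes and in 0.572% of all probes. For miR-139-3p the letters are CGTCTCC (0 of 35, 0.168% of all probes), for miR-143-3p TCATCTC (0 of 35, 0.636%), for miR-139-5p ACTGTAG (0 of 35, 0.320%), for the shared seed TGTTTAC (0 of 35, 0.526%) and for miR-30a-3p ACTGAAA (0 of 35, 0.902%). ACTGCAC, for miR-143-5p, was in 1 of 35 and in 0.345% of all probes. That match was in the RN7SL1 probe, whose ratio on the miR-143-5p array was -0.03. Only the strand of the probes was searched, and no match in 60 bases says nothing about the rest of an RNA.

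7SK and 7SL RNA were highest on the miR-139-3p array. The probes of 7SK RNA and of U6atac RNA, the highest member there, are shown.
RN7SK: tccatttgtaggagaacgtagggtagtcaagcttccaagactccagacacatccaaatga
RNU6ATAC: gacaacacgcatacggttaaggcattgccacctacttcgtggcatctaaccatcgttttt

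The files place RN7SK at chr6:52860659-52860718 and RNU6ATAC at chr9:137029562-137029621 (hg19). RN7SK had log2 ratios of 0.06, 2.09, 0.67, 1.52, 0.04, 0.71, 0.33 and -0.55. It was past 2-fold on miR-139-3p and miR-143-3p. Its Cy3 level hardly moved between the HCT116 arrays, at 12.47, 12.53, 12.36 and 12.29, while Cy5 was 12.97, 14.83, 13.45 and 14.06. Between both miR-139 arrays the Cy3 levels differed by 0.06 and the Cy5 levels by 1.86, so the higher ratio lay in the transfected channel.

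RN7SL1 had ratios of 1.32, 2.21, -0.03, 0.11, -0.19, 0.92, 0.45 and 0.08. It was the only member past 2-fold on the miR-139-5p array. Its Cy3 level in HCT116 was 12.66 and 12.54 on the miR-139 arrays but 13.60 and 13.55 on the miR-143 arrays, so the mock channels of miR-139-5p and miR-143-5p differed by 0.93. The Cy5 levels were 14.37, 15.00, 14.08 and 14.02. From miR-139-5p to miR-143-5p, Cy5 differed by -0.295. From miR-139-5p to miR-139-3p, it differed by 0.63, where Cy3 differed by -0.13. Near-identical copies of 7SL RNA are many in the human genome, and the probe cannot tell them apart.

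Of the proteins of the 7SK particle, HEXIM1, which binds 7SK RNA and inhibits P-TEFb, was 1.19 on the miR-139-3p array. On the others it was -0.47 (miR-139-5p), -0.66 (miR-143-5p), -0.34 (miR-143-3p), -0.12 (miR-30c-5p), -0.04 (miR-30c-2-3p), -0.01 (miR-30a-5p) and 0.09 (miR-30a-3p). LARP7, which stabilises 7SK, had its largest value on miR-30a-3p (-1.11), and CCNT1, a cyclin of P-TEFb, on miR-30c-2-3p (0.92). Among signal recognition particle proteins the largest values were 1.06 for SRP54 and 0.95 for SRP14, both on miR-30c-2-3p, and -0.58 for SRP72 on miR-139-3p.

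**Figure D3:**
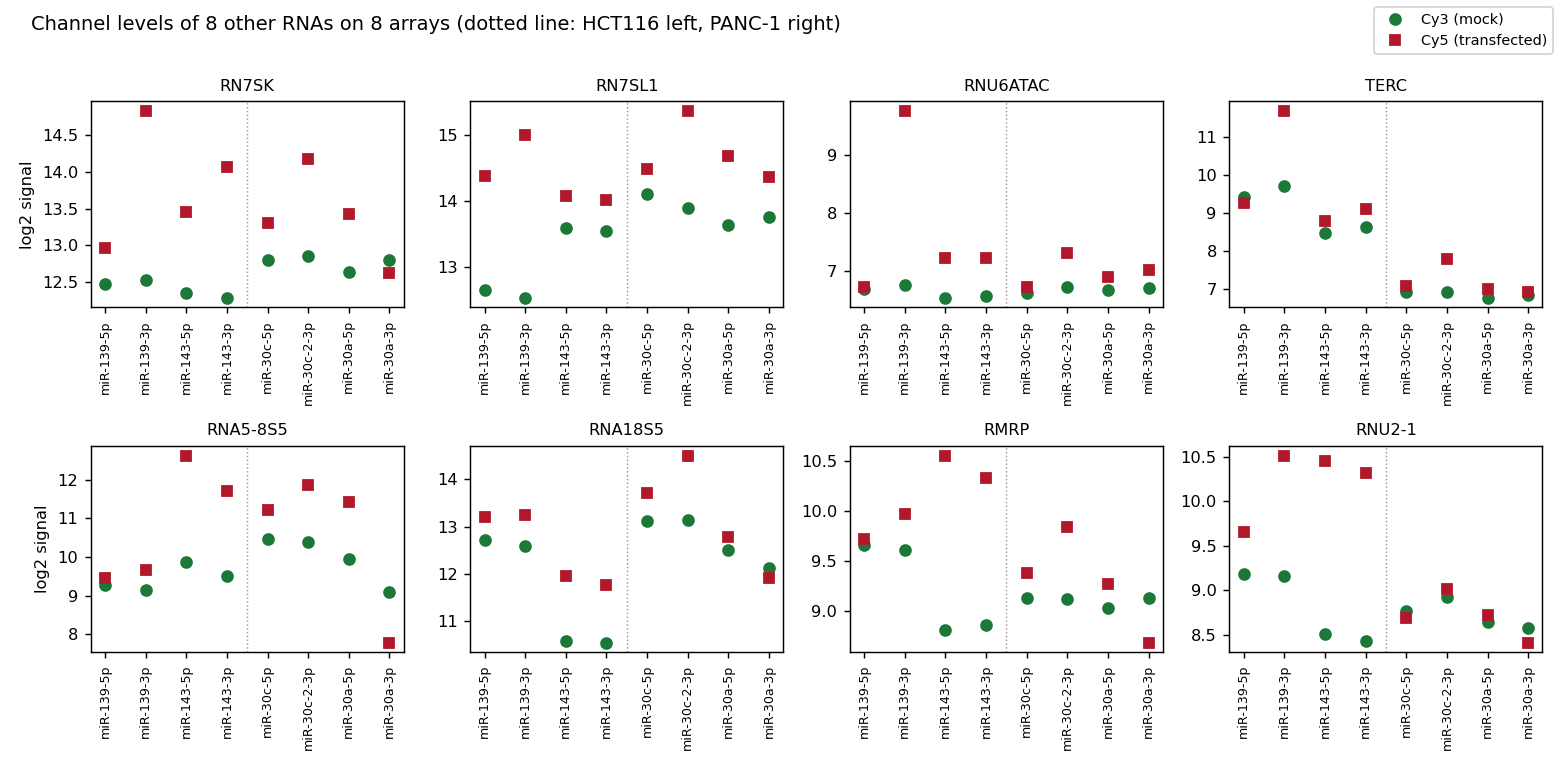
Log2 signal of 8 other RNAs in Cy3 (green circles, mock) and Cy5 (red squares, transfected) on the 8 arrays, HCT116 left and PANC-1 right of the dotted line, with a separate vertical axis for each panel. RN7SK, RNU6ATAC and TERC have their highest Cy5 on miR-139-3p; Cy3 of RNU6ATAC stays between 6.53 and 6.75, whereas that of TERC runs from 6.77 to 9.71 and that of RNA18S5 is 12.71 on miR-139-5p and 10.58 on miR-143-5p.

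Of the 4 minor spliceosomal RNAs, RNU6ATAC, RNU11 and RNU4ATAC were 2-fold higher on miR-139-3p, RNU12 was not, and none was on miR-139-5p, a difference that was not tested. RNU6ATAC, U6atac RNA, had ratios of -0.13, 2.59, 0.49, 0.41, -0.07, 0.37, 0.06 and 0.17. It was the highest member value on miR-139-3p and below 0.5 on the other 7 arrays. In Cy3 it lay between 6.53 and 6.75 on all 8 arrays, and in Cy5 at 9.76 on miR-139-3p against 6.72 to 7.32 elsewhere. RNU11, U11 RNA, had 0.18, 1.41, 0.56, 0.49, -0.79, -0.83, -0.50 and -0.02, so it was above 0 on all 4 HCT116 arrays and below 0 on all 4 PANC-1 arrays. Before the loess fit, its mean signal on miR-30a-3p was higher in Cy5 (145) than in Cy3 (97). RNU4ATAC, U4atac RNA, had 0.47, 1.19, 0.33, 0.93, -0.32, -0.34, 0.15 and -0.09. Its 1.19 became 0.96 by the scanner log ratio and 0.72 as the median over both of its probes. RNU12, U12 RNA, stayed between -0.26 and 0.67, with 0.47 and 0.48 on the miR-139 arrays. The second probes of RNU11 and RNU4ATAC, both from ESTs, gave -0.06 to 0.05 and -0.13 to 0.26.

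RNU2-1, U2 RNA of the major spliceosome, was 2-fold higher on both miR-143 arrays. Its probe is shown because the files place it at chr11:62609103-62609162 (hg19), whereas RefSeq has RNU2-1 on chromosome 17.
RNU2-1: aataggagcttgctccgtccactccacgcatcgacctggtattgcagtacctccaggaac

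RNU2-1 had ratios of 0.18, 0.998, 1.65, 1.53, -0.33, -0.22, -0.20 and -0.42, all above 0 in HCT116 and all below 0 in PANC-1. The signs in PANC-1 are those after the loess fit. Before it, mean signals were higher in Cy5 than in Cy3 on miR-30c-5p (450 and 399), miR-30a-5p (475 and 424) and miR-30a-3p (462 and 384). On miR-30c-2-3p they were 486 and 491. Mock HCT116 cells differed between the pairs of arrays, with Cy3 at 9.18 and 9.16 for miR-139 and at 8.51 and 8.43 for miR-143. In Cy5 the levels were 9.65, 10.51, 10.45 and 10.32, so miR-139-3p stood as high as both miR-143 arrays there.

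Among 12 Sm and snRNP proteins, SNRPA1, a U2 protein, was 1.19 and SNRNP70, a U1 protein, was 0.99 on miR-30c-2-3p, and SNRPB, a core Sm protein, was -1.04 on miR-139-3p. Of the complex that starts snRNA transcription, the largest values were -0.85 for SNAPC4 on miR-143-5p, -0.74 for SNAPC1 on miR-143-3p and 0.58 for SNAPC5 on miR-30c-2-3p. Of the Integrator complex, which cuts snRNA 3′ ends, they were -0.99 for INTS1 on miR-143-5p, -0.95 for INTS3 on miR-30c-2-3p and -0.81 for INTS10 on miR-139-3p. None of these 11 Integrator genes passed the 2-fold rule.

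TERC and RPPH1 were also 2-fold higher on the miR-139-3p array. TERC, at chr3:169482636-169482695 in hg19, and RMRP are shown together because they were high on different arrays.
TERC: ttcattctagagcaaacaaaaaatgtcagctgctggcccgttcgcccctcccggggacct
RMRP: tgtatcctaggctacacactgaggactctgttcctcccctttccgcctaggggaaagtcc

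TERC had ratios of -0.45, 1.59, 0.03, 0.15, -0.002, 0.64, 0.06 and -0.08. Both miR-139 arrays differed in Cy5, 9.27 against 11.67, more than in Cy3, 9.42 against 9.71. RPPH1 had 0.15, 1.101, 0.77, 1.24, -0.28, 0.29, -0.12 and -0.20, past 2-fold on the miR-139-3p and miR-143-3p arrays. Its EST probe stayed between -0.06 and 0.02. TERT, the catalytic subunit of telomerase, was -0.97 on miR-30c-2-3p, and DKC1 and NHP2, which bind TERC, were -0.79 and -0.76 on miR-139-3p. DKC1 was below 0 on all 8 arrays, from -0.79 to -0.17. Of the RNase P and MRP proteins, RPP14 was 1.19 on miR-139-3p, RPP40 was -1.03 on miR-30c-2-3p and POP5 was -0.90 on miR-139-3p.

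Both miR-143 arrays had another set of higher members, with 5.8S rRNA first. Its probe lies at chrUn_gl000220:156050-156109 (hg19), an unplaced contig with the ribosomal repeat.
RNA5-8S5: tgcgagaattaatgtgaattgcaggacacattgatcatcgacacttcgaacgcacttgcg

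RNA5-8S5 (RNA5-8SN5 in RefSeq) had ratios of -0.12, 0.19, 2.39, 1.83, 0.42, 1.09, 1.153 and -1.62. No other member spanned as wide a range. The Cy5 level was 12.63 and 11.70 on the miR-143 arrays against 9.44 and 9.67 on the miR-139 arrays, while Cy3 was 9.86 and 9.50 against 9.27 and 9.15. On the miR-30a arrays, Cy5 was 11.42 for miR-30a-5p but 7.78 for miR-30a-3p. Their Cy3 levels also differed, 9.94 against 9.10, although 0 of 19760 genes were 2-fold apart between these mock channels.

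RNA18S5 (18S, RNA18SN5 in RefSeq) had ratios of 0.04, 0.25, 1.04, 0.87, 0.09, 0.78, -0.16 and -0.60. RNA28S5 (28S, RNA28SN5 in RefSeq) had 0.44, 1.12, 0.21, 0.99, 0.32, 0.85, 0.28 and -0.51. The rRNAs did not share 1 order over the arrays: 28S was 2-fold higher on miR-139-3p, 18S on miR-143-5p and 5.8S on 4 arrays. All 3 were below 0 on miR-30a-3p after the loess fit. Before normalisation, mean signals there were higher in Cy5 than in Cy3 for 18S (5571 and 4506) and 28S (69217 and 45733). For 5.8S they were lower in Cy5 (272 and 557). In the mock cells for miR-143, 18S had Cy3 levels of 10.58 and 10.54, against 12.71 and 12.58 in those for miR-139. The 18S Cy5 level on the miR-143 arrays, 11.95 and 11.76, was below the 13.20 and 13.25 of the miR-139 arrays, so the higher ratio stood against a lower mock. The value of 1.12 for 28S on miR-139-3p was 0.78 by the scanner log ratio.

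RMRP, at chr9:35657939-35657998 in hg19, had ratios of -0.26, -0.01, 1.44, 1.12, 0.0009, 0.41, -0.03 and -0.68. It was past 2-fold on both miR-143 arrays and on no other. Its mock level was 9.66 and 9.61 for miR-139 but 8.81 and 8.85 for miR-143, and its Cy5 level was 9.72, 9.97, 10.56 and 10.34. Here the miR-143 arrays were lower in Cy3 and higher in Cy5. Of the RNA polymerase I genes, UBTF, an activator, was -1.06 on miR-30c-2-3p, POLR1B, a subunit, -1.01 on miR-139-3p and RRN3, an initiation factor, -0.97 on miR-143-5p.

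Vault RNAs, classed here only by a name that starts with VTRNA, stayed within 2-fold on all 8 arrays. Of these, however, VTRNA1-1, VTRNA1-2 and VTRNA2-1 were dim. VTRNA2-1 was well above background in Cy3 on only 5 arrays and VTRNA1-1 on 7. A small ratio of such a probe does not show that the RNA was unchanged. VTRNA1-1 ranged from -0.16 to 0.26, VTRNA1-2 from -0.15 to 0.23, VTRNA1-3 from -0.13 to 0.63 and VTRNA2-1 from -0.04 to 0.62. Their highest values were on miR-139-3p (VTRNA1-3 and VTRNA2-1) and on the miR-143 arrays. MVP, the main vault protein, was -1.37 on miR-30c-2-3p. TEP1 and PARP4, minor vault proteins, were 0.75 and -0.43 on miR-139-3p. RNU105B was detected on 2 arrays, at 0.09 and 0.08, close to background.

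Proteins common to many of these RNAs were counted against the share of all genes. Among RNA polymerase III genes, GTF3A, the factor for 5S rRNA genes, was -1.40 on miR-30a-3p, POLR3G, a subunit, -1.07 on miR-139-3p and MAF1, the repressor, -0.998 on miR-30c-2-3p. SSB (La), which binds the 3′ ends of new RNA polymerase III transcripts, was 0.05, -0.51, 0.20, -0.27, -0.13, 0.28, -0.08 and -0.42, and TROVE2 (Ro) was -0.94 on miR-30a-3p. Of enzymes that trim or degrade 3′ ends, PARN was -0.98 on miR-139-3p, USB1 -0.84 on miR-30c-2-3p and DIS3L -0.66 on miR-30c-5p. Of 107 listed protein genes, all but 2 were on the arrays. On miR-139-3p 2 of them were 2-fold higher (1.90%, against 2.11% of all genes) and 4 lower (3.81%, against 2.82%). On miR-30c-2-3p 2 were higher (1.92%, against 1.71%) and 3 lower (2.88%, against 4.14%), so on both arrays their shares lay near those of all genes. On miR-30a-3p 0 were higher (against 0.372%) and 2 lower (1.92%, against 1.1%), and on the other 5 arrays 0 either way. Their median ratio was -0.14 on miR-139-3p and 0.05 on miR-30c-2-3p, beside 0.01 on both over all detected genes.

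Other small nucleolar and small Cajal body RNAs, 306 names on the arrays, were counted in the same way. On miR-139-3p 44 of 229 detected names were 2-fold higher (19.2%), against 46.4% of the members. On miR-30c-2-3p they were 46 of 272 (16.9%), against 29.6%. On miR-143-5p and miR-143-3p they were 23 of 233 (9.87%) and 21 of 228 (9.21%), against 14.8% and 18.5%. On the other 4 arrays the count was 0. With median centring the snoRNA counts were 0, 45, 31, 21, 0, 51, 0 and 1 in array order, while every array then had 6 or more higher members. Both groups share labelling and arrays, and the difference between their shares was not tested.

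**Figure D4:**
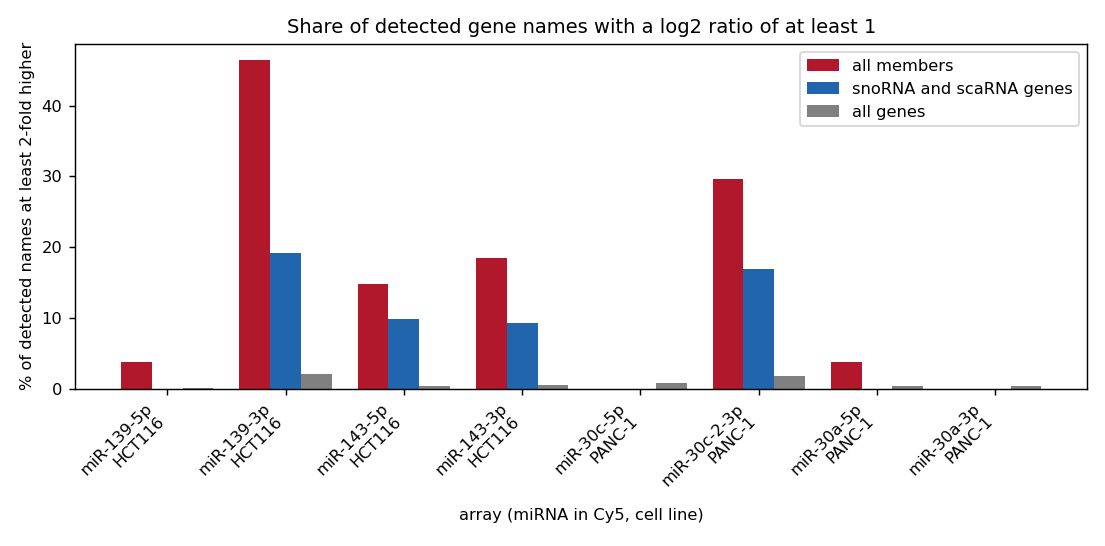
Share of detected gene names with a log2 ratio of at least 1 on each array (bars from 0, in percent), for the 31 member names (red), 306 snoRNA and scaRNA names (blue) and all genes (grey). Members reach 46.4% on miR-139-3p and 29.6% on miR-30c-2-3p, where all genes stand at 2.11% and 1.71%. On miR-30c-2-3p, 7 of the 8 higher members are SNARs, whose probes overlap in sequence.

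Mock cells of both lines were compared in Cy3 alone, a contrast that was not itself used to choose the members. For SNARs it was not independent of the ratios. Their low Cy3 on the miR-30c-2-3p array enters both the ratio there and the PANC-1 mock mean. The 2 Cy3 channels for a precursor were averaged, which left 2 values a line, and nothing says that these came from separate cultures, so the p-values measure only the spread between them. Limma called 4 of 26 members tested at an adjusted p under 0.05, against 43.4% of 19497 genes tested. Higher in HCT116 were 3 members, against 22.5% of genes, and 1 was higher in PANC-1, against 20.8%. At an unadjusted p under 0.05 (limma) there were 7 of 26 members. At least 43.4% of all genes tested also pass there, since an adjusted p is never below the unadjusted value. The line and the slide column cannot be told apart, since each line filled 1 column.

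SNAR-G1 was higher in HCT116 by 2.19 ± 0.44 (SE, log2 scale, adjusted p = 0.027, limma), with levels of 11.68 and 12.20 against 9.20 and 10.29. TERC was higher by 2.18 ± 0.38 (adjusted p = 0.020, limma), with 9.56 and 8.55 against 6.93 and 6.82. RNU12 was higher by 0.42 ± 0.08 (adjusted p = 0.026, limma). RN7SK was lower in HCT116 by -0.36 ± 0.09 (adjusted p = 0.046, limma), with 12.50 and 12.32 against 12.83 and 12.72. The groups did not overlap for any of these 4. With 2 values a line this says little, and the share of all genes without overlap was not counted.

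The other 6 sense SNAR probes had differences of 0.96 (SNAR-A3) to 1.68 (SNAR-F) towards HCT116, with adjusted p of 0.063 to 0.19 (limma). Their groups did not overlap either, with the same limit. Since these probes overlap in sequence, their 6 differences are not separate results. Without the Cy3 channel of the miR-30c-2-3p array, in which SNARs were low, SNAR-F was 1.503 with an adjusted p of 0.040 (limma), and this leave-out was chosen after seeing the data. Without the averaged miR-30c mock the 6 differences were 0.32 to 1.04 (adjusted p = 0.090 to 0.24, limma), and without that of miR-30a they were 1.53 to 2.33 and all 6 passed (adjusted p = 0.040 to 0.047). Leaving out an averaged mock ended the call of SNAR-G1 without that of miR-143 (1.93, adjusted p = 0.077, limma) or miR-30c (1.65, adjusted p = 0.080), and that of TERC without miR-30c or miR-30a (2.24, adjusted p = 0.12, and 2.12, adjusted p = 0.13). RNU12 lost its call without any 1 of the 4, and RN7SK without any but miR-139. Of members with no call, RNA18S5 had the largest difference towards PANC-1, -1.12 ± 0.82 (adjusted p = 0.34, limma), with HCT116 values of 12.65 and 10.56 that were far apart.

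**Figure D5:**
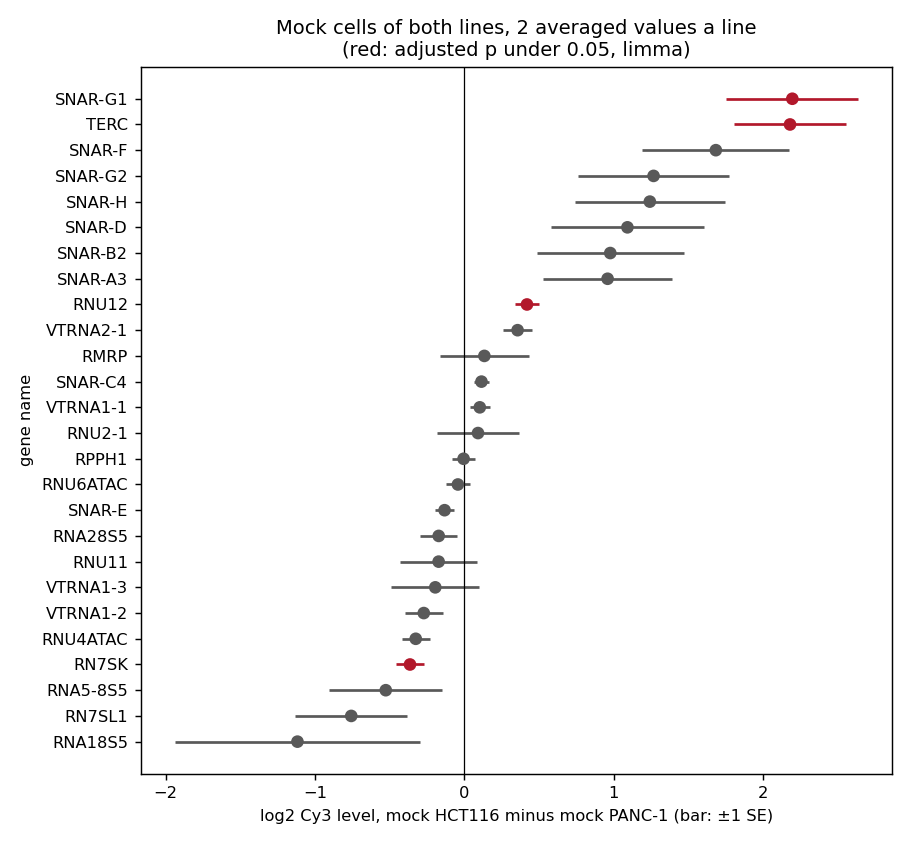
Difference in log2 Cy3 level between mock HCT116 and mock PANC-1 cells for the 26 members tested (points, bars ± 1 SE from limma, 2 averaged values a line), with members at an adjusted p under 0.05 in red. SNAR-G1 (2.19) and TERC (2.18) lie farthest towards HCT116 and RNA18S5 (-1.12) farthest towards PANC-1 with the widest bar.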

How the data were processed

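The deposited scanner output gives, per the file headers, the mean intensity of both channels and the median local background intensity of each spot (Agilent Feature Extraction, version 11.5.1.1, build hg19), with calls for outlier, saturated and well-above-background spots. The deposited processed table holds log10 ratios of Cy5 over Cy3, equal to the scanner log10 ratios (largest difference 0 over 62976 spots). No column was without a sample (0).

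In R 4.3.3 with limma 3.58.1, background was corrected by normexp (offset 50) and log2 ratios were normalised by loess within each array. Outlier spots were left out, and each name took its brightest probe over the 8 arrays. The size rule was a log2 ratio of at least 1 among detected genes. Cy3 and Cy5 levels were quantile-normalised between arrays. Mock lines were compared with lmFit and eBayes and Benjamini-Hochberg adjustment over all genes, which was also tested on simulated data. Tables and plots used Python 3.11.15, pandas 2.3.3, numpy 2.4.6, Biopython 1.88 (local alignment) and matplotlib 3.10.9.

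Members and gene lists were chosen with earlier results of these data known. Named were all SNARs, up to 6 names a class by largest absolute ratio, RN7SK, RN7SL1, RMRP, RPPH1, TERC, all vault RNAs, the 3 largest ratios in each protein list, and SSB and HEXIM1, apart from items that are not reported here. RefSeq matched the accessions of 27 of 35 member probes and all 8 miRNAs. Alternatives were 6 for the ratios and further ones for the mock comparison.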

Additional observations from a re-analysis of the deposited data

Results flagged for a closer look

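The Cy3 level of RMRP over the 4 PANC-1 mock channels had 1 value apart from the others: 9.13 on miR-30c-5p, 9.12 on miR-30c-2-3p, 9.02 on miR-30a-5p and 9.12 on miR-30a-3p. The gap of the miR-30a-5p array to its nearest neighbour was 0.9 of the whole range, above the Dixon limit for 4 values. It was the only 1 of 48 groups of 4 mock channels tested, where chance flags about 1 in 20.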

How the results depend on the processing

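None of the 33 member values past 2-fold changed sign under the 6 alternatives. All 33 stayed past 2-fold with median centring, 31 without background correction, 32 with the median over probes and 26 by the scanner log ratio, where the 7 that did not were all on miR-139-3p. Median centring moved the median of all detected genes by over 0.1 on miR-30c-5p (0.20), miR-30a-5p (0.14) and miR-30a-3p (0.28). It gave 6 higher members on miR-139-5p, 12 on miR-143-5p, 8 on miR-143-3p, 8 on miR-30c-5p, 6 on miR-30a-5p and 7 on miR-30a-3p, while 0.259%, 1.005%, 0.637%, 3.98%, 1.41% and 8.82% of all genes were higher. On miR-30a-3p it turned 82 higher and 242 lower genes into 1946 and 46. In this paragraph, SNAR medians are over all SNAR names that a setting kept as detected, unless the 7 sense probes are named. SNAR medians became 0.97, 0.995, 1.14, 0.55, 1.16, 3.78, 0.91 and 1.07 with median centring, in array order, against 0.55, 0.93, 0.63, 0.30, 0.54, 3.36, 0.34 and 0.12. By the scanner log ratio, higher members were 9 on miR-139-3p in place of 13, against 10.3% of all genes. They were 6 on miR-143-5p (3.99%), 8 on miR-143-3p (4.32%), 9 on miR-30c-2-3p (9.21%) and 2 on miR-30a-3p (6.03%). Lower ones were 1 on miR-143-5p (4.75%), 2 on miR-30c-5p (3.11%), 1 on miR-30c-2-3p (11.8%) and 2 on miR-30a-3p (4.11%). SNAR medians in this setting were 0.67 (miR-139-3p), 0.53 (miR-143-5p), 0.033 (miR-143-3p), 3.31 (miR-30c-2-3p) and 0.23 (miR-30a-3p). The scanner log ratio put 397 to 2128 genes an array 2-fold higher, against 12 to 436. Without background correction, 1 member was lower on miR-30c-5p and 1 on miR-30c-2-3p, against 0.914% and 6.77% of all genes. SNAR medians were then 0.59, 3.32, 0.39 and 0.18 on the PANC-1 arrays. With no filter on dim probes, SNAR medians were 0.48 (miR-139-5p), 0.63 (miR-139-3p), 0.11 (miR-143-3p), 0.49 (miR-30c-5p) and 3.23 (miR-30c-2-3p), and with both channels above background 0.62 (miR-139-5p), 1.03 (miR-139-3p) and 0.68 (miR-143-5p). Over the 7 sense probes, an alternative chosen after seeing the data, they were 0.65, 1.04, 0.73 and 0.37 on the HCT116 arrays and 0.20 on miR-30a-3p. The cause of these shifts was not tested, apart from the members that a filter adds or removes.

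In the mock comparison, 14 of 26 members were called with each Cy3 channel as a sample, which counts near-equal channels apart (68.3% of all genes), and 1 of 31 with no filter on dim probes (16.8%). Leaving out 1 averaged mock gave 0 (without miR-30c, 6 at an unadjusted p under 0.05, limma, 8.56% of all genes called) to 7 calls (without miR-139, 44.5%, or miR-30a, 9.84%), with the lone sample assumed to vary like the others. Without Cy3 of the miR-30c-2-3p array, chosen after seeing the data, there were 6 (42.2%). No paired analysis was possible because each miRNA had 1 array and replicate numbers were all 1. Signal over background limited the 5 EST probes of SNARs, RNU105B, RNU105C and the dim vault RNAs, and the number of arrays limits every ratio.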
